A study of Mus musculus with 12 samples.

Results

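Integrins are cell surface receptors made of an alpha and a beta subunit, through which cells hold on to the matrix around them. The 10 genes described here encode integrin subunits of kidney epithelium and of the fibroblasts between the tubules: Itgb6, Itgb8, Itgav, Itgb1, Itgb3, Itga2, Itga3, Itga5, Itga8 and Itga11. They were taken by gene symbol from the deposited count tables, which list 40213 gene symbols, and all 10 were found. All 10 were also among the 17841 genes with enough reads to be tested.

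RNA sequencing of kidney tissue from C57BL/6 mice gave 12 libraries in 3 groups of 4. The colchicine group had chronic kidney disease (CKD) from adenine in the diet and was given colchicine, a drug that binds tubulin, injected intraperitoneally at 0.3 mg/kg per day. The CKD group ate a diet with 2% adenine, and the control group ate a normal diet; both of these groups were given saline by the same route. The labels give 2% adenine for colchicine replicate 1 but 3, 4 and 5% for colchicine replicates 2, 3 and 4, so outside replicate 1 the labelled adenine differs from the CKD group together with the drug, and drug and diet cannot be told apart if these labels are right. The design text of the submitters describes a single adenine model and gives no percentages, and which of the labels and the text holds could not be settled here. The same doubt applies to each value below that rests on the labelled percentage. The submitters call the samples biological replicates without naming animals, and p-values here measure the spread between these samples. All libraries carry the label of 1 batch.

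Dietary adenine forms crystals in the tubules, and the kidney then loses tubule function, fills with inflammatory cells and scars. Integrins take part in several ways: the alpha v subunit (Itgav) with the beta subunits Itgb6 or Itgb8 binds the latent form of transforming growth factor beta (TGF-beta) and can release it, and Itgb1 pairs with many alpha subunits to form receptors for collagen, laminin and fibronectin. Itgb6 is known as an epithelial gene, Itga11 as a gene of fibroblasts and Itga8 as a gene of mesangial and other stromal cells of the kidney.

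The promoters of 9 of the 10 genes were found in RefSeq sequence tables of mouse build GRCm38.p6; that of Itgb3 is not shown. Those of Itga5 and Itgb8 are printed because these genes moved in opposite directions in both steps of the study in the main fit: relative to its reference Itga5 was higher, and Itgb8 lower, in CKD and again with colchicine. The Itgb8 call with colchicine against CKD was kept in only 8 of 21 alternatives. Its call in CKD against control ended with library totals alone. Each sequence is the 250 bases upstream of the start of the gene, on the minus strand, and capitals mark matches to the SP1 motif GGGCGG on either strand (CCGCCC when read on the other strand).
Itga5 promoter, chr15:103366792-103367041: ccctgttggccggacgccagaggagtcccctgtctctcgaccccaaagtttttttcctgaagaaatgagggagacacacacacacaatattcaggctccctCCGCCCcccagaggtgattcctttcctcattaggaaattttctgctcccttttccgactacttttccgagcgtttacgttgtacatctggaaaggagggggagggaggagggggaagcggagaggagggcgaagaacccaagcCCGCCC
Itgb8 promoter, chr12:119238277-119238526: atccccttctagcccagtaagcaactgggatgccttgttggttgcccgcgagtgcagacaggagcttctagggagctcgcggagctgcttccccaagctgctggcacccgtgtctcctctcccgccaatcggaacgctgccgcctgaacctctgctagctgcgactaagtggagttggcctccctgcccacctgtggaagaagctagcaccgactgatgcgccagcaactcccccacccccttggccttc
The Itga5 window held SP1 matches that begin 149 and 6 bases before the start, and the Itgb8 window held none. Among the 9 promoters, 3 held an SP1 match (Itgb1, Itga3 and Itga5), against 32.9% of 27025 mouse promoters of the same length. The TEAD motif GGAATG was in 1 of the 9 (Itgb1), against 12.6% of all promoters. Neither the AP-1 motif TGANTCA nor the SMAD motif GTCTAGAC was in any of the 9, and they were in 6.87% and 0.174% of all promoters. Both strands were searched, the motifs share no positions in these windows, and a match describes the letters only.

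Total counts, in M (1000000 reads), were 23.9 to 38.3 M in colchicine libraries, 22.2 to 27.4 M in CKD libraries and 22.6 to 31.7 M in control libraries. Mitochondrial transcripts took 14.6 to 21.8% of the counts in colchicine libraries, 16.7 to 17.3% in CKD libraries and 41.5 to 46.7% in control libraries. Levels are therefore given as counts per 1000000 (CPM) after scaling by the trimmed mean of M-values (TMM), which sets the bulk of genes level between libraries. If libraries are scaled by their totals alone, the median gene in CKD is 1.05 higher than in control on the log2 scale, against 0.04 with TMM. Markers of the proximal tubule summed to 356 to 668 CPM in colchicine libraries, 559 to 771 CPM in CKD libraries and 8194 to 8785 CPM in control libraries; all 6 were lower in CKD than in control. Fibroblast markers summed to 3077 to 3978 CPM with colchicine, 2456 to 2956 CPM in CKD and 321 to 384 CPM in control. All 7 were higher in CKD than in control. Of all genes tested, 34.1% were called higher and 33.4% lower in CKD than in control, at an edgeR adjusted p below 0.05. With colchicine against CKD 2 of the 7 were called higher, 0 lower and 5 neither. Over all genes 6.79% were called higher and 8.24% lower with colchicine than in CKD. Col1a1 averaged 1770 CPM with colchicine and 1235 CPM in CKD. Dcn averaged 181 and 226 CPM, and Lum 12.8 and 16.1 CPM, so these markers did not move together. In bulk tissue a change in the number of cells of a type and a change in RNA per cell cannot be told apart, and the part of these shifts in the results on integrins was not tested. Colchicine replicate 1 stood apart from the other 3 colchicine libraries for Itgb8, Itgav, Itgb1 and Itga2, so results with colchicine are given with and without it where it matters.

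In CKD kidneys 7 of the 10 integrin genes were higher than in control kidneys and 2 were lower, while Itga8 did not pass the test. The largest rises were those of Itgb3, Itga11 and Itga5, at 7.41, 4.41 and 4.33 times the control level, and the larger fall was that of Itgb8, 2.23 times lower. Of all genes tested, 34.1% were called higher and 33.4% lower in this comparison, (67.4% in all), by the quasi-likelihood test of edgeR with a threshold of 0.05 on the adjusted p. The median log2 fold change over the 10 was 0.96, against 0.04 over all genes tested. The ranges of the 4 CKD and 4 control libraries did not overlap for the 9 genes called, as was so for 66.2% of all genes (33.2% with CKD higher and 33% with CKD lower).

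**Figure D1:**
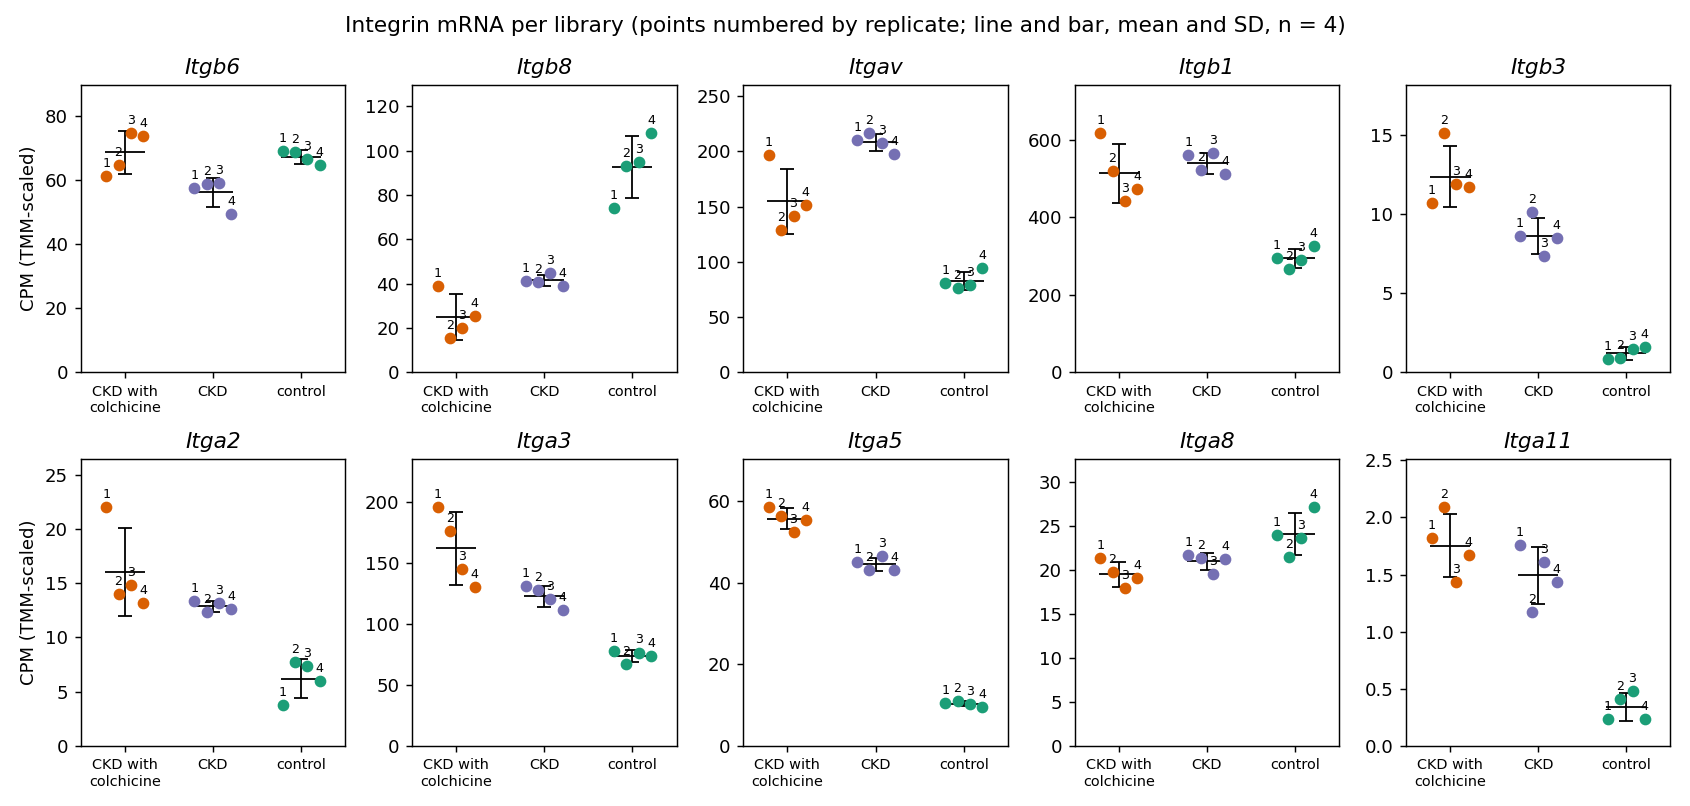
Scaled level (CPM, linear axis from 0) of each of the 10 integrin genes in every library, 1 panel per gene; points are libraries numbered by replicate, lines and bars are means and SD (n = 4), and groups run from colchicine-treated CKD through CKD to control. Itgb3, Itga5 and Itga11 have all 8 adenine libraries far above the 4 control libraries, Itgb8 has them all below, and Itgb6 has the CKD libraries lowest.

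The subunits that bind latent TGF-beta did not move together. Itgb6 had 61.3, 64.8, 74.8 and 73.7 CPM in colchicine kidneys, 57.5, 58.8, 58.9 and 49.4 CPM in CKD kidneys, and 69.2, 68.9, 66.5 and 64.7 CPM in control kidneys. The CKD libraries were below every library of both other groups, and the colchicine and control libraries overlapped. Itgb6 was 1.20 times lower in CKD than in control (log2 fold change -0.26 ± 0.08 SE, edgeR adjusted p = 0.00965) with TMM scaling, a direction that turned to 0.75 higher on the log2 scale when libraries were scaled by their totals alone. The call also ended with upper-quartile scaling (-0.13, edgeR adjusted p = 0.216) and with no filter on low counts (0.0641). It was 1.22 times higher with colchicine than in CKD (0.29 ± 0.08, edgeR adjusted p = 0.0276), a call that ended without CKD replicate 1, 3 or 4 or colchicine replicate 3 or 4, at edgeR adjusted p between 0.0582 and 0.0863. Fitting replicate numbers as a block ended that call too. It also ended with the 8 libraries of the comparison alone (0.28, edgeR adjusted p = 0.0641), with an adenine slope read at 2% (0.13, 0.506) and with replicate 1 as the only colchicine library (0.12, 0.607). Colchicine and control did not differ beyond the error (0.03 ± 0.08, edgeR adjusted p = 0.765), but colchicine was called higher with upper-quartile scaling (0.23) and with library totals alone (1.06), and the sign turned without colchicine replicate 3 or 4.

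Itgb8, whose protein pairs with that of Itgav, was lower at each step. Its levels were 38.9, 15.4, 20.0 and 25.2 CPM with colchicine, 41.0, 40.9, 44.9 and 39.0 CPM in CKD, and 74.2, 93.1, 94.96 and 108 CPM in control. The control libraries stood above all others; colchicine replicate 1, at 38.9 CPM, lay just under the lowest CKD library, at 39.0 CPM, and the other 3 colchicine libraries lay well under it. The log2 fold change was -1.16 ± 0.22 in CKD against control (edgeR adjusted p = 0.000530), and -1.90 ± 0.23 with colchicine against control (8.20e-06), or 3.73 times lower. With library totals alone the first of these was -0.16 and did not pass (edgeR adjusted p = 0.523). Colchicine against CKD gave -0.74 ± 0.22 (edgeR adjusted p = 0.0460), or 1.67 times lower.

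The size of that last difference changed with colchicine replicate 1, while its call needed each other library of the comparison. Without colchicine replicate 1 Itgb8 was -1.05 on the log2 scale in colchicine against CKD (edgeR adjusted p = 0.000500). With replicate 1, the library labelled 2% adenine like the CKD group, as the only colchicine library, the difference was -0.10 (edgeR adjusted p = 0.810). Leaving out any 1 of the CKD libraries, or colchicine replicate 2, 3 or 4, also ended the call, with edgeR adjusted p between 0.0776 and 0.130. Of all 21 alternatives tried for this comparison, 8 kept the call.

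Itgav, the alpha subunit that these beta subunits share, had 197, 129, 142 and 151 CPM with colchicine, 210.4, 217, 207 and 198 CPM in CKD, and 80.9, 76.1, 78.9 and 94.2 CPM in control. All adenine libraries were above all control libraries, and colchicine replicate 1 lay next to the CKD libraries while the other 3 colchicine libraries lay lower. Itgav was 2.52 times higher in CKD than in control (log2 fold change 1.33 ± 0.11, edgeR adjusted p = 5.22e-08) and 1.88 times higher with colchicine than in control (0.91 ± 0.11, 3.29e-06). Between colchicine and CKD it was 1.34 times lower with colchicine (-0.43 ± 0.11, edgeR adjusted p = 0.0218). Without colchicine replicate 1 the value was -0.57 (edgeR adjusted p = 0.000148), and neither replicate 1 as the only colchicine library (-0.09) nor an adenine slope read at 2% (-0.27, edgeR adjusted p = 0.312) kept the call. The call also ended without CKD replicate 1, 2 or 3 or colchicine replicate 2 or 3, at edgeR adjusted p between 0.0547 and 0.0723.

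Itgb3, another partner of Itgav, whose receptor binds vitronectin and osteopontin and which is also abundant on platelets and osteoclasts, had the highest fold change of the 10. It had 10.7, 15.1, 11.9 and 11.7 CPM with colchicine, 8.58, 10.1, 7.32 and 8.47 CPM in CKD, and 0.816, 0.866, 1.44 and 1.57 CPM in control, where 14 to 27 reads were counted per library. The 3 groups did not overlap. CKD was above control by 2.89 ± 0.20 on the log2 scale (edgeR adjusted p = 5.44e-09), and colchicine was above control by 3.41 ± 0.20 (6.21e-10), or 10.6-fold. Colchicine was above CKD by 0.52 ± 0.16 (edgeR adjusted p = 0.0380), or 1.43-fold. That call ended without CKD replicate 1, 3 or 4 or colchicine replicate 2, 3 or 4, at edgeR adjusted p between 0.0588 and 0.137. Fitting replicate numbers as a block ended that call too. It also ended with an adenine slope read at 2% (0.52, edgeR adjusted p = 0.182) and with replicate 1 as the only colchicine library (0.30, 0.531).

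Markers of 2 other cell types that carry Itgb3 moved as follows. The 5 platelet markers summed to 15.2 to 35.7 CPM with colchicine, 12.9 to 16.5 CPM in CKD and 4.84 to 6.72 CPM in control. Of these, Pf4 and Ppbp were higher in CKD than in control and Itga2b was lower, and Gp1ba and Gp9 had too few reads to be tested. The 4 osteoclast markers summed to 82.0 to 110.2 CPM with colchicine, 90.5 to 96.0 CPM in CKD and 34.6 to 38.4 CPM in control. Of these, 3 were higher in CKD than in control and 1, Acp5, was lower, against 34.1 and 33.4% of all genes. Acp5 averaged 23.9 CPM with colchicine, 27.7 CPM in CKD and 33.9 CPM in control. Ctsk averaged 56.8, 50.9 and 2.90 CPM in the same order. The part of platelets and osteoclasts in the Itgb3 levels was not tested.

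Itgb1, the beta subunit shared by receptors for collagen, laminin and fibronectin, had 618, 519, 442 and 474 CPM with colchicine, 560.3, 521, 565 and 511 CPM in CKD, and 296, 266, 289 and 325 CPM in control. The adenine groups overlapped each other and neither overlapped the control group. Itgb1 was 1.83 times higher in CKD than in control (log2 fold change 0.88 ± 0.10, edgeR adjusted p = 1.39e-06) and 1.75 times higher with colchicine than in control (0.80 ± 0.10, 3.17e-06). Colchicine against CKD gave -0.07 ± 0.10 (edgeR adjusted p = 0.632), a sign that turned to 0.19 with replicate 1 as the only colchicine library.

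Among the alpha subunits that pair with Itgb1, Itga2, a collagen receptor of epithelium and platelets, had 22.1, 14.0, 14.8 and 13.1 CPM with colchicine, 13.4, 12.3, 13.1 and 12.6 CPM in CKD, and 3.73, 7.69, 7.39 and 5.97 CPM in control. Colchicine replicate 1 was the highest library, and the other colchicine libraries lay close to the CKD libraries. CKD was 2.07 times the control level (log2 fold change 1.05 ± 0.20, edgeR adjusted p = 0.000287) and colchicine 2.58 times (1.37 ± 0.20, 2.06e-05). Colchicine against CKD gave 0.32 ± 0.18 and did not pass (edgeR adjusted p = 0.240).

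Itga3, a laminin receptor of epithelium that podocytes need, had 197, 177, 145 and 130.2 CPM with colchicine, 131, 128, 120.5 and 112 CPM in CKD, and 77.6, 67.1, 76.6 and 74.0 CPM in control. The lowest colchicine library, replicate 4, fell just inside the CKD range, and both adenine groups were above all controls. CKD was 1.66 times the control level (log2 fold change 0.73 ± 0.11, edgeR adjusted p = 3.02e-05) and colchicine 2.20 times (1.14 ± 0.11, 2.57e-07). Colchicine was 1.32 times the CKD level (0.40 ± 0.11, edgeR adjusted p = 0.0271). That call ended without CKD replicate 2, 3 or 4 or colchicine replicate 2, at edgeR adjusted p between 0.0536 and 0.0870, and with the 8 libraries of the comparison alone (0.0615).

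Itga11, a receptor for fibrillar collagen, was the scarcest of the 10. It had 1.82, 2.10, 1.43 and 1.67 CPM with colchicine, 1.76, 1.18, 1.61 and 1.43 CPM in CKD, and 0.233, 0.407, 0.479 and 0.232 CPM in control. Behind the control values stood 4, 8, 7 and 4 reads, so the control level is known only roughly. The adenine groups overlapped each other and lay above all controls. CKD was above control by 2.14 ± 0.30 on the log2 scale (edgeR adjusted p = 1.22e-05) and colchicine by 2.37 ± 0.29 (3.24e-06). Colchicine against CKD gave 0.23 ± 0.24 (edgeR adjusted p = 0.511).

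Itga5, the alpha subunit of the main fibronectin receptor, was the member with the least spread among replicates relative to its change. It had 58.6, 56.25, 52.4 and 55.3 CPM with colchicine, 45.0, 43.1, 46.6 and 43.1 CPM in CKD, and 10.4, 11.0, 10.2 and 9.45 CPM in control. The 3 groups did not overlap. CKD was above control by 2.11 ± 0.07 on the log2 scale (edgeR adjusted p = 3.04e-12) and colchicine by 2.44 ± 0.07 (7.49e-13), or 5.42-fold. Colchicine was 1.25 times the CKD level (0.32 ± 0.06, edgeR adjusted p = 0.00670).

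Itga8, the receptor subunit for nephronectin, differed least between CKD and control of the 10 genes. It had 21.4, 19.8, 18.0 and 19.1 CPM with colchicine, 21.8, 21.4, 19.6 and 21.3 CPM in CKD, and 24.0, 21.5, 23.6 and 27.2 CPM in control. CKD and control libraries overlapped, and all colchicine libraries were below all control libraries. CKD against control gave -0.20 ± 0.09 (edgeR adjusted p = 0.0544), which passed without control replicate 2 (-0.25, edgeR adjusted p = 0.0240) and with the 8 libraries of the comparison alone (-0.18, 0.0490) and turned to 0.81 with library totals alone. Colchicine was 1.23 times lower than control (-0.30 ± 0.09, edgeR adjusted p = 0.00540) with TMM scaling, did not pass with upper-quartile scaling (-0.11, edgeR adjusted p = 0.225), and turned to 0.73 higher on the log2 scale with library totals alone. Colchicine against CKD gave -0.10 ± 0.08 (edgeR adjusted p = 0.399). An antisense transcript, E030013I19Rik, shares 372 exon bases with Itga8 on the opposite strand in the GENCODE M21 annotation; it had 3 to 15 reads per library, and the sources used here do not say how the counting treated strand.

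Set against CKD alone, colchicine came with higher levels of 4 of the 10 genes (Itgb6, Itgb3, Itga3 and Itga5) and lower levels of 2 (Itgb8 and Itgav). The other 4 did not pass the test. Over all genes tested, 6.79% were called higher and 8.24% lower by edgeR at an adjusted p below 0.05, or 15% in all, and the median log2 fold change was 0.26 over the 10 and 0.03 over all genes. The groups did not overlap for 3 of the genes that were higher and for both that were lower, as was so for 8.92 and 9.29% of all genes, or 18.2% in all. None of the 6 differences exceeded 1.67-fold. With replicate 1 as the only colchicine library, 2 genes were called higher and 0 lower (Itga3 and Itga5 were those called), and with a slope for the labelled adenine percentage read at 2% the counts were also 2 and 0. Itga5 was the member of the 10 whose difference was called under all 21 alternatives tried for this comparison, with log2 fold changes of 0.30 to 0.39 and edgeR, limma or DESeq2 adjusted p of 0.000422 to 0.0267.

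**Figure D2:**
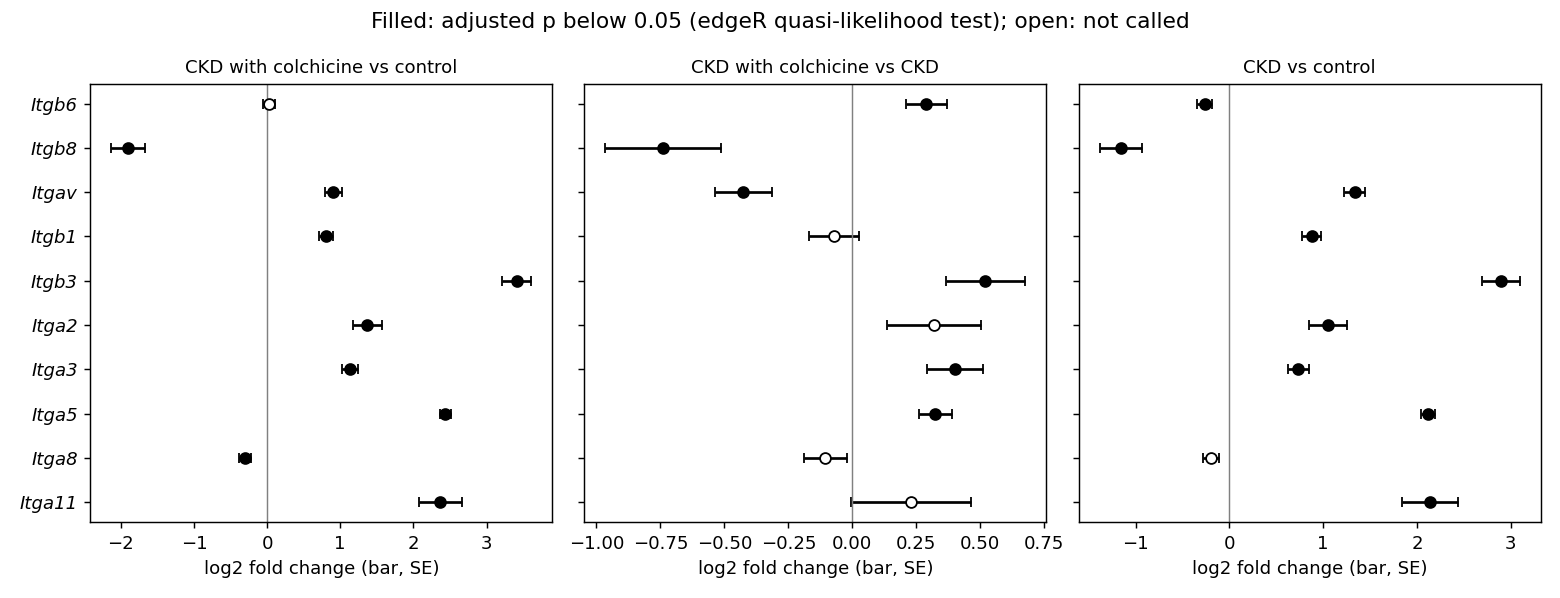
Log2 fold change of each integrin gene with bars of 1 SE in 3 panels: colchicine-treated CKD against control, colchicine-treated CKD against CKD, and CKD against control; filled points passed an edgeR adjusted p of 0.05. Against control, Itgb8 lies furthest to the left and Itgb3 furthest to the right, and the middle panel spans -0.74 to 0.52.

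Set against control, colchicine-treated kidneys had 7 of the 10 genes higher and 2 lower (Itgb8 and Itga8), against 37.1% of all genes called higher and 33.4% called lower by edgeR, or 70.5% in all. Itgb6 was the member not called. The median log2 fold change was 1.02 over the 10 and 0.10 over all genes, and the groups did not overlap for the 9 genes called and for 62.5% of all genes (32.2% higher and 30.3% lower with colchicine). This comparison shares its control libraries with that of CKD against control, and its colchicine libraries with that of colchicine against CKD.

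The balance of subunits within a library does not depend on scaling between libraries, so counts of partners were also set against each other as a description. There were 0.311, 0.501, 0.528 and 0.487 Itgb6 reads per Itgav read with colchicine, 0.273, 0.271, 0.284 and 0.250 in CKD, and 0.855, 0.905, 0.843 and 0.687 in control. The 3 groups kept apart, with the lowest ratios in CKD. For Itgb8 per Itgav the ratios were 0.197, 0.119, 0.141 and 0.166 with colchicine, 0.195, 0.188, 0.217 and 0.197 in CKD, and 0.917, 1.22, 1.20 and 1.15 in control. All adenine libraries were thus far below all controls, and colchicine replicate 1 lay within the CKD range.

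Itgb3 went the other way, with 0.0542, 0.117, 0.0838 and 0.0772 reads per Itgav read with colchicine, 0.0408, 0.0465, 0.0353 and 0.0428 in CKD, and 0.0101, 0.0114, 0.0182 and 0.0166 in control. Itgb1 had 3.12 to 4.01 reads per Itgav read with colchicine, 2.40 to 2.72 in CKD and 3.45 to 3.66 in control. For Itgb1 the CKD libraries thus lay below both other groups, which overlapped. Among the partners of Itgb1, Itga5 had 0.0949 to 0.119 reads per Itgb1 read with colchicine, 0.0804 to 0.0844 in CKD and 0.0291 to 0.0411 in control, again with no overlap between groups. Itga8 had 0.0346 to 0.0407 reads per Itgb1 read with colchicine, 0.0346 to 0.0418 in CKD and 0.0807 to 0.0839 in control. Itga3 had 0.275 to 0.341 with colchicine, 0.213 to 0.246 in CKD and 0.228 to 0.265 in control, so the CKD and control libraries overlapped and the colchicine libraries lay above both.

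**Figure D3:**
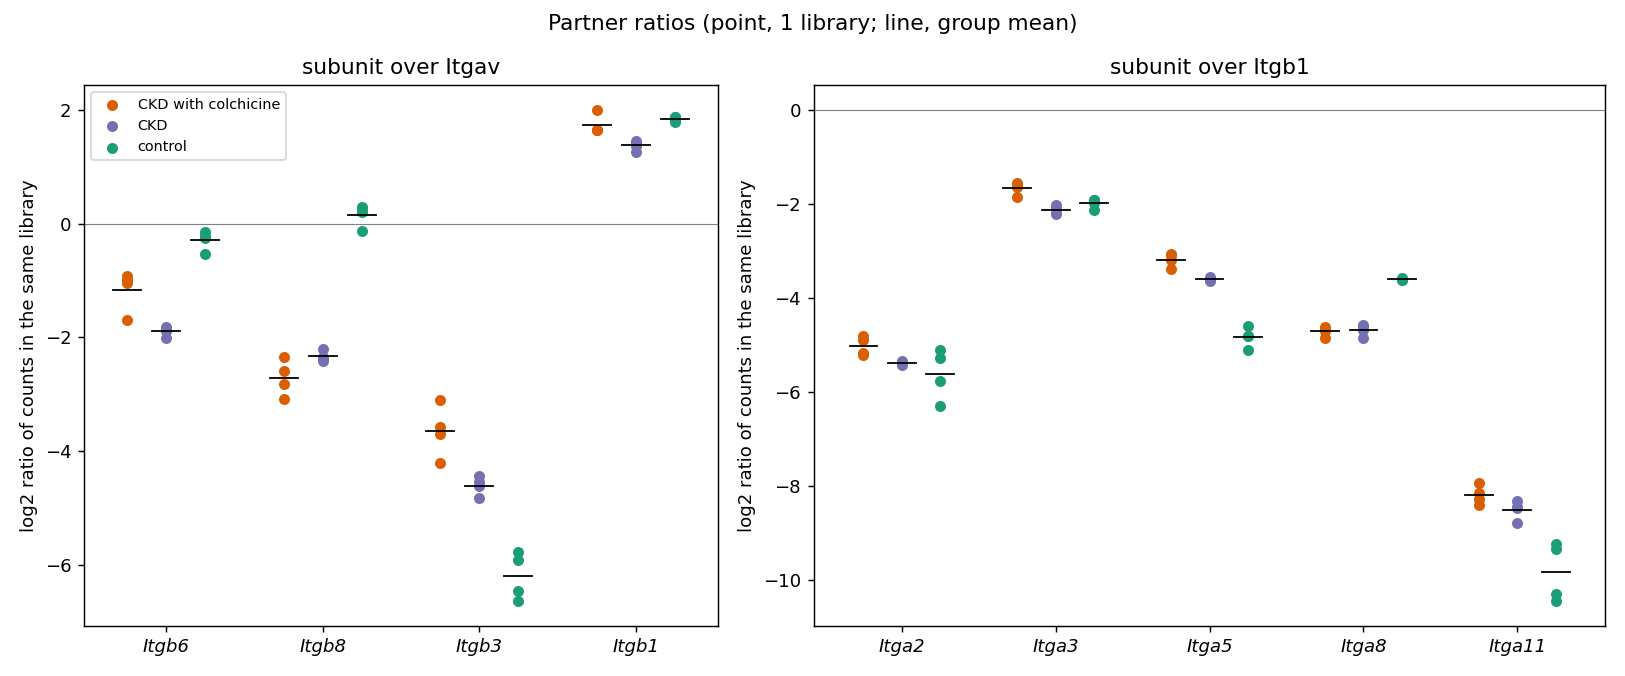
Log2 ratio of the counts of each integrin gene to those of its partner (Itgav on the left, Itgb1 on the right) in every library; points are libraries, lines are group means, and groups run from colchicine-treated CKD through CKD to control. The ratios of Itgb6 and Itgb8 to Itgav are lower in all 8 adenine libraries than in the 4 control libraries, and those of Itgb3 to Itgav and Itga5 to Itgb1 are higher.

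Levels of different genes were compared per kilobase (kb) of transcript, using the lengths of principal transcripts in GENCODE M21. Itgb1 was the most abundant of the 10 in each group, at 134 ± 20.1 CPM per kb with colchicine, 141 ± 7.13 in CKD and 77.0 ± 6.33 in control (SD, n = 4 each). Itga11 was the scarcest, at 0.353 ± 0.0561 CPM per kb with colchicine, 0.3005 ± 0.0504 in CKD and 0.0680 ± 0.0252 in control.

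In colchicine kidneys Itgb1 was followed by Itga3 at 33.4 ± 6.18 CPM per kb and Itgav at 21.9 ± 4.20, which overlapped, and then by Itgb6 at 14.3 ± 1.38 and Itga5 at 12.7 ± 0.587, which also overlapped. Next came Itga8 at 3.36 ± 0.246, Itgb8 at 2.96 ± 1.21, Itga2 at 2.25 ± 0.575 and Itgb3 at 2.13 ± 0.333, neighbours that did not differ beyond their spread. In CKD kidneys the order after Itgb1 was Itgav at 29.5 ± 1.13 CPM per kb, Itga3 at 25.3 ± 1.76, Itgb6 at 11.7 ± 0.948, Itga5 at 10.1 ± 0.384, Itgb8 at 4.93 ± 0.298, Itga8 at 3.62 ± 0.170, Itga2 at 1.81 ± 0.0674 and Itgb3 at 1.49 ± 0.196; here Itgb6 overlapped Itga5, and Itga2 overlapped Itgb3.

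Control kidneys had Itga3 at 15.2 ± 0.979 CPM per kb and Itgb6 at 14.0 ± 0.441 after Itgb1, then Itgav at 11.7 ± 1.14 and Itgb8 at 11.0 ± 1.66, with overlap inside each of these pairs. Below them stood Itga8 at 4.15 ± 0.409, Itga5 at 2.34 ± 0.142, Itga2 at 0.872 ± 0.254 and Itgb3 at 0.202 ± 0.0666. Itga5 thus stood below Itga8 in control and above it in both adenine groups. The order rests on the transcript chosen: by coding length alone, Itgb8 would come second in control.

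The genes whose pattern over the 12 libraries was closest to each member were found by the root mean square distance between log2 CPM values centred on each gene's mean, among 13144 genes with a mean count of 50 or more. Closest to Itga5 were Ckap4 at a distance of 0.109, Sparc, a secreted matrix protein, at 0.112, and Actn1, an actin crosslinker of focal adhesions, at 0.114. For Itgb8 they were Erlin1 at 0.114, Cldn2, a tight junction protein of the proximal tubule, at 0.162, and Ctbs at 0.169. Itgav had Acsl4 at 0.0910, Tmem123 at 0.110 and Morc3 at 0.111.

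The genes closest to Itgb3 lay farther off: Slc7a5, a subunit of an amino acid transporter, at 0.171, then Neurl1a at 0.215 and Nlgn2 at 0.235. Itga3 was closest to St14, an epithelial membrane protease, at 0.0959, and Itgb6 to Ccdc163 at 0.0879. Itgb1 had Kdm1a at 0.0683 and Itga2 had Dusp10 at 0.175, while for Itga8 the 3 closest genes lay at 0.0625 to 0.0642 and for Itga11 at 0.223 to 0.230. Among the 10 genes themselves, Itgb1 and Itga3 were the closest pair at 0.217, and Itgb8 and Itgb3 the farthest at 2.31.

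A list of 17 other genes held further integrin subunits and Itgbl1, which encodes a secreted protein that resembles a beta subunit and is not a receptor subunit; 16 of the 17 could be tested. In CKD against control 15 of the 16, Itgbl1 included, were higher and 1, Itga2b, lower, against 34.1 and 33.4% of all genes. The 3 with the smallest p were subunits of leukocyte integrins: Itgb2 averaged 83.7 ± 6.57 CPM with colchicine, 109 ± 7.81 CPM in CKD and 5.61 ± 0.673 CPM in control (SD, n = 4 each), and in CKD against control its log2 fold change was 4.27 ± 0.10, that of Itgax 4.52 ± 0.18 and that of Itgam 5.73 ± 0.26 (edgeR adjusted p of 2.31e-13 to 2.10e-10). Macrophage markers summed to 828 to 1299 CPM with colchicine, 1304 to 1347 CPM in CKD and 73.7 to 87.8 CPM in control.

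Between colchicine and CKD, 2 of the 16 were higher with colchicine and 6 lower, with a median log2 fold change of -0.36, against 6.79 and 8.24% of all genes and a median of 0.03. With an adenine slope read at 2% there were 1 higher and 2 lower, and with replicate 1 as the only colchicine library 0 higher and 2 lower. Itgae, the alpha subunit of tissue T cells and some dendritic cells, averaged 1.22 ± 0.238 CPM with colchicine, 3.43 ± 0.841 CPM in CKD and 1.03 ± 0.260 CPM in control, and was lower with colchicine than in CKD by -1.49 ± 0.24 on the log2 scale (edgeR adjusted p = 0.00230). Itgb2 was also lower (-0.37 ± 0.08, edgeR adjusted p = 0.0101). The 2 that were higher were Itga2b, of platelets and megakaryocytes (1.05 ± 0.20, edgeR adjusted p = 0.00616), and Itgb4, of the epithelial hemidesmosome (0.50 ± 0.11, edgeR adjusted p = 0.0127). Itgb4 averaged 43.0 ± 7.16 CPM with colchicine, 30.5 ± 2.58 CPM in CKD and 8.28 ± 1.17 CPM in control. The 6 lower calls became 3 without CKD replicate 1 or 3 or colchicine replicate 2, and 4 without CKD replicate 2 or 4, and the 2 higher calls became 1 without CKD replicate 3; with the 8 libraries of the comparison alone 3 were lower. Macrophage markers were lower with colchicine than in CKD for 3 of 5, and their part in these differences was not tested.

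**Figure D4:**
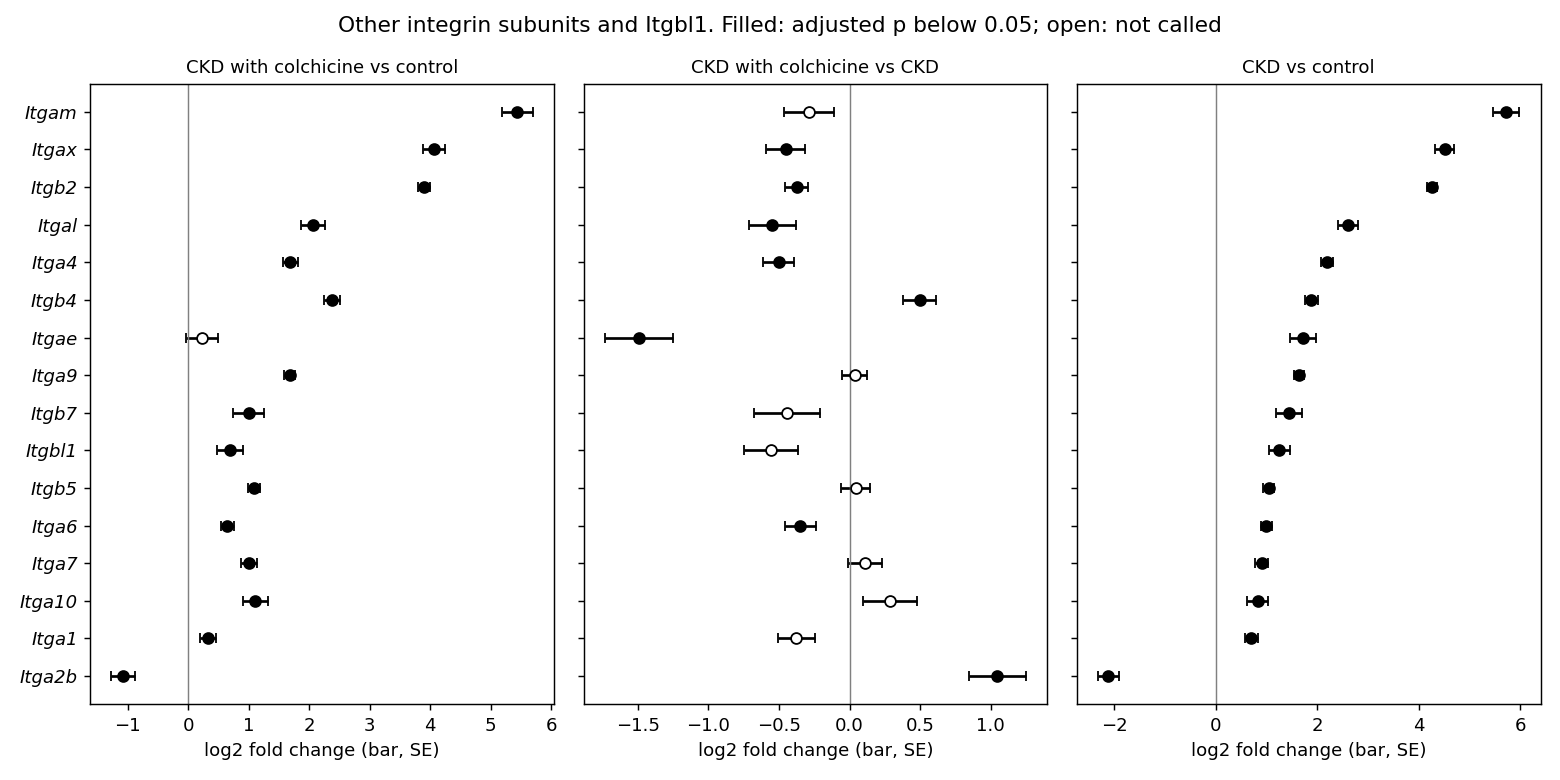
Log2 fold change with bars of 1 SE for the other integrin subunits and Itgbl1 in 3 panels: colchicine-treated CKD against control, colchicine-treated CKD against CKD, and CKD against control; filled points passed an edgeR adjusted p of 0.05. In CKD against control only Itga2b lies left of 0, and in the middle panel Itgae lies furthest left at -1.49 and Itga2b furthest right at 1.05.

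Of 21 genes for integrin ligands, the proteins that integrins bind, 17 were higher in CKD than in control and 1, Lama3, lower. The shares over all genes were 34.1 and 33.4%. The median log2 fold change was 2.03, against 0.04 over all genes. With RLE or upper-quartile scaling, library totals or no filter on low counts, 0 ligands were called lower. The same held without control replicate 2, 3 or 4 and without any 1 CKD library. Col1a1, a chain of type I collagen, averaged 1770.3 ± 159 CPM with colchicine, 1235 ± 81.1 CPM in CKD and 91.9 ± 13.8 CPM in control. It was higher in CKD than in control by 3.75 ± 0.11 on the log2 scale (edgeR adjusted p = 1.44e-12). Spp1, which encodes osteopontin, averaged 10013 ± 2522 CPM with colchicine, 15063 ± 1290 CPM in CKD and 611 ± 46.0 CPM in control, with a log2 fold change of 4.62 ± 0.18 in CKD against control.

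In colchicine kidneys 3 of the 21 ligands were higher than in CKD kidneys and 2 were lower, against 15% of all genes called in either direction. With replicate 1 as the only colchicine library, and with upper-quartile scaling, 6 were called higher, and with no filter on low counts 1 was. Col1a1 was higher by 0.52 ± 0.10 (edgeR adjusted p = 0.00643), while Spp1 was lower by -0.59 ± 0.15 (0.0206) and Fga, a fibrinogen chain, by -1.48 ± 0.28 (0.00866). The 3 higher calls became 1 without CKD replicate 2, 3 or 4 or colchicine replicate 2, and the 2 lower calls became 1 without CKD replicate 3 or colchicine replicate 3, while without colchicine replicate 1 there were 5 higher and 4 lower. Fn1 and Npnt are given because they encode the fibronectin and nephronectin bound by the receptors of Itga5 and Itga8, and were chosen after values were seen. Fn1 averaged 688 ± 156 CPM with colchicine, 698 ± 86.7 CPM in CKD and 34.9 ± 5.35 CPM in control. Npnt averaged 149 ± 12.8 CPM with colchicine, 121 ± 13.7 CPM in CKD and 120.2 ± 14.7 CPM in control, and in CKD against control it gave 0.02 on the log2 scale and did not pass.

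The next list held 9 genes, for TGF-beta, the family of latent TGF-beta binding proteins, Lrrc32 and Nrros. In CKD against control 8 were higher, against 34.1% of all genes, and Ltbp1 was the one that did not pass. Tgfb1 was higher by 2.00 ± 0.07 on the log2 scale and Tgfb2 by 2.81 ± 0.11. Ltbp2, a matrix protein of the latent TGF-beta binding family, averaged 89.5 ± 21.8 CPM with colchicine, 91.8 ± 6.21 CPM in CKD and 0.461 ± 0.207 CPM in control (edgeR adjusted p = 8.49e-12 in CKD against control). Ltbp2 is listed by family, and whether its protein holds latent TGF-beta was not tested. With colchicine against CKD 4 of the 9 were higher and 0 lower, among them Lrrc32, which holds latent TGF-beta on the cell surface (0.57 ± 0.16, edgeR adjusted p = 0.0297), and Tgfb3 (0.39 ± 0.11, 0.0295). Those 4 calls became 0 when any 1 CKD library was left out, 1 without colchicine replicate 2 and 2 without colchicine replicate 3. The count called higher was 4 with DESeq2, 2 with RLE scaling or library totals, and 1 with no filter on low counts or with the 8 libraries alone; with replicate 1 as the only colchicine library 4 were higher and 2 lower. Of all genes, 6.79% were called higher by edgeR in the comparison of colchicine with CKD.

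Among 20 genes of focal adhesions and integrin activation, 13 were higher and 3 lower in CKD than in control. The shares over all genes were 34.1 and 33.4%. The median log2 fold change was 0.38, against 0.04 over all genes. Fermt3, a kindlin of blood cells that activates integrins, was higher by 3.25 ± 0.09, Flna, an actin crosslinker, by 2.26 ± 0.08 and Actn1 by 2.24 ± 0.08 (edgeR adjusted p of 9.70e-13 to 4.48e-12). With colchicine against CKD 3 of the 20 were higher and 0 lower, the same share as the 15% of all genes called in either direction: Parvb (0.37 ± 0.08, edgeR adjusted p = 0.00797), Flna (0.28 ± 0.08, 0.0276) and Fermt1, an epithelial kindlin (0.24 ± 0.08, 0.0483). These 3 became 1 without any 1 CKD library or colchicine replicate 2 and 2 without colchicine replicate 3 or 4, and without colchicine replicate 1 there were 5 higher and 3 lower. With replicate 1 as the only colchicine library 0 were called in either direction.

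The last list held 4 genes whose products regulate integrin activity, directly or through a partner. Dok1 was higher in CKD than in control (1.90 ± 0.19, edgeR adjusted p = 3.18e-07), Itgb1bp1 (-0.34 ± 0.08) and Sharpin (-0.31 ± 0.08) were lower with TMM scaling, and Krit1 did not pass. Of all genes, 34.1% were called higher and 33.4% lower in CKD against control. With library totals alone all 4 listed were called higher there, as were 13195 of the 17841 genes tested. In the comparison of colchicine with CKD edgeR called 0 of the 4, as did DESeq2, against 15% of all genes called by edgeR. Krit1 gave -0.33 ± 0.13, Sharpin 0.19 ± 0.08 and Dok1 0.37 ± 0.16 (edgeR adjusted p of 0.0988 to 0.129). Without colchicine replicate 1, edgeR called 2 of the 4 higher and 1 lower, as it did 2882 and 3519 of the 18140 genes then tested.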

How the data were processed

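Per the labels' protocols, kidney RNA was extracted with RNAiso Plus and libraries were made with the CORALL RNA-seq V2 kit. The submitters' processing notes name build GRCm39 and the tools fastp, STAR and Salmon; no versions or settings are given in the sources used here. Each deposited file holds 1 column of whole numbers per gene for its library, taken as the authors' estimated counts, rounded; the largest counts are coarser, since every one of the 28 that reach 1000000 is a multiple of 10.

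Differential expression was tested in R 4.3.3 using edgeR 4.0.16. After filterByExpr at a minimum count of 10, 17841 of 40213 genes remained. TMM scaling was followed by a robust quasi-likelihood fit of 3 group means over the 12 libraries. P-values are two-sided and adjusted by Benjamini-Hochberg over all genes tested, and calls were made at an adjusted p below 0.05. CPM are TMM-scaled, and log2 CPM used a prior count of 2. Libraries of the same group differed by more than the sampling error of counts, with a chi-square per degree of freedom of 7.96 to 91.8. No 2 libraries of the same group were identical.

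The 10 genes, the other gene lists, the cell type markers and the alternatives were chosen with earlier results of these data known. All 10 genes are named, and from each other list the examples come from the 3 genes with the smallest p in a comparison; genes named beyond that rule are marked as such, except where they illustrate a single count. Alternatives used DESeq2 1.42.0 and limma 3.58.1, other scalings, filters and designs, and left out each library in turn. Promoters came from RefSeq tables, and transcript lengths and exon overlaps from GENCODE M21. The fitting steps were tested on simulated data.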

Additional observations from a re-analysis of the deposited data

Results flagged for a closer look

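Among the 10 integrin genes in 3 groups, 30 sets of 4 libraries, 1 library stood farther from the others of its group than Dixon's 95% critical value allows. This was CKD replicate 4 for Itgb6, at 49.4 CPM, against 57.5, 58.8 and 58.9 CPM in the other CKD libraries. Chance alone marks about 1 set in 20. Without that library Itgb6 with colchicine against CKD gave 0.23 on the log2 scale and did not pass (edgeR adjusted p = 0.0833).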

How the results depend on the processing

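For the 10 genes in 3 comparisons, settings other than leaving out a library gave 321 results with the direction and side of the threshold as reported, 20 that no longer passed, 3 that now passed and 6 that turned round; leaving out a library gave 210, 27, 1 and 2. With library totals alone the log2 fold change turned to 0.75 for Itgb6 and 0.81 for Itga8 in CKD against control, and to 0.73 for Itga8 with colchicine against control. That scaling moves the median of all genes to 1.05 in CKD against control, 0.05 with colchicine against CKD and 1.14 with colchicine against control, from 0.04, 0.03 and 0.10; upper-quartile scaling moves it to 0.17, 0.09 and 0.30. With colchicine against CKD, Itgb1 turned to 0.13 with an adenine slope and to 0.19 with the single library labelled 2% adenine, and Itga8 turned to 0.018 with that library. Itgb6 with colchicine against control ranged from -0.046 to 0.075 when a library was left out, and was below 0 without colchicine replicate 3 or 4. The number of the 10 called lower in CKD against control was 1 with upper-quartile scaling, 0 with library totals and 1 with no filter on low counts; with colchicine against control it was 1 with upper-quartile scaling and 1 with library totals. With colchicine against CKD it was 1 with library totals, 1 with no filter, 1 with the 8 libraries alone, 1 with the replicate block, 0 with the slope and 0 with the single library. The number called higher there was 2 with the 8 libraries alone, 2 with the replicate block, 2 with the slope and 2 with the single library. Over all genes 2682 were called there, against 1756 with the replicate block, 1008 with the slope and 1192 with the single library. Leaving out a library gave 1 to 4 called higher, 0 to 2 called lower and 992 (without CKD replicate 3) to 6401 (without colchicine replicate 1) over all genes. Replicate numbers did not pair the libraries: libraries of the same number had deviations correlated at -0.279 to 0.189. Where no cause is shown by the setting itself, the cause was not tested. Depth limits Itga11 and Itgb3 in control, with 4 to 8 and 14 to 27 reads per library.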
